A study of Mus musculus with 10 samples.

Results

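The ISG15 conjugation system was followed in obstructed mouse kidneys through the transcripts of 5 genes, picked by symbol from the 54532 genes of the deposited table: the modifier Isg15, its activating enzyme Uba7, its conjugating enzyme Ube2l6, its ligase Herc6 and the protease Usp18. All kidneys came from male wild-type C57BL/6 mice whose left ureter was ligated at 8 weeks of age (unilateral ureteral obstruction, UUO), and they were collected 14 days later. The 5 control mice received PBS. The 5 DMM mice received 40 mg/kg dimethyl malonate, an ester prodrug of the succinate dehydrogenase inhibitor malonate, by intraperitoneal injection every other day. Bulk RNA-seq was done on whole kidney tissue with a single library per mouse, and kidneys without obstruction were not analysed here. Total counts were between 16457495 and 18078777 reads on genes in control libraries and between 15722527 and 19475833 in DMM libraries. As the labels give kidney, tubule and podocyte markers were looked up, and all 7 tubule genes, with Umod the most abundant, and the 2 podocyte genes had enough reads to be tested.

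ISG15 is a small ubiquitin-like protein that cells make in response to type I interferon and attach to lysines of other proteins. Attachment runs through a relay like that of ubiquitin, in which UBA7 activates ISG15, UBE2L6 (also called UBCH8) carries it, and a HERC family ligase, HERC6 in mice, transfers it to substrates, while USP18 takes it off again. USP18 has a further role at the interferon receptor subunit IFNAR2, where it dampens signalling, and the genes of the whole relay are themselves interferon-stimulated, in renal tubular cells as in leukocytes.

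Several libraries stood apart from the others of their group. In the group means that the authors deposited, control 3 and DMM 1 had a weight of 0, and the remaining 8 libraries had weights between 0.227 and 0.271, although the methods give 5 replicates per group. The 5 genes are therefore compared over all 10 libraries first and then over these 8, which are a subset of the same libraries and not a second experiment. For other genes the order varies, and some values are given over the 8 libraries alone. DMM 4 differed in another way: its log2 level lay far from those of the other DMM libraries, by a gap of more than 0.71 of the group's range, in 23.8% of 16505 tested genes, against 1.41% for DMM 1 and at most 2.54% for any control library. The level in DMM 4 also went with exon length: relative to the mean log2 level of the other DMM libraries, the median was -0.53 for 995 genes under 1000 bases, -0.73 for 2125 genes of 1000 to 2000 bases and 0.65 for 2511 genes of 8000 bases or more. In control libraries the same medians lay between -0.03 and 0.02. When limma estimated a quality weight for every library, DMM 4 had 0.051, DMM 1 0.478 and control 3 0.768, and the other 7 libraries had weights above 1.

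Over all 10 libraries, none of the 5 genes was called, a call being a Benjamini-Hochberg adjusted p under 0.05 in edgeR's quasi-likelihood test together with a fold change above 1.5. The same test called 0 of 16505 genes lower (0%), and its smallest adjusted p was 0.378. At an unadjusted p under 0.05 with that fold change, 5 of the 5 genes were lower in DMM kidneys, against 4.11% of all tested genes. DESeq2 over the same libraries called 0 of the 5, and 36 of 15866 genes lower in all. Its adjusted p was 0.0552 for Uba7, 0.0573 for Ube2l6, 0.126 for Herc6, 0.225 for Usp18 and 0.291 for Isg15. Over the 8 libraries edgeR called 5 of the 5 genes lower, where 3.56% of 16550 genes were called lower. Before adjustment, at p below 0.05 and the same fold change, it was 5 of 5 against 7.24%. With the replicate number as a block in that fit, 0 of the 5 genes and 0 of all tested genes were called. In these 8 libraries each of the 5 genes was lower in every DMM kidney than in all 4 control kidneys, as was the case for 10.7% of all genes tested, and the 5 were also lower there than in control 3. With DMM 1 and control 3 included, 0 of the 5 genes were separated in this way, against 1.16% of all genes. In limma voom with sample quality weights, which keeps all 10 libraries, 5 of 5 were called lower, against 6.02% of all genes. As the RNA came from whole kidneys, fewer cells that express these genes and less of their RNA per cell cannot be told apart.

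**Figure D1:**
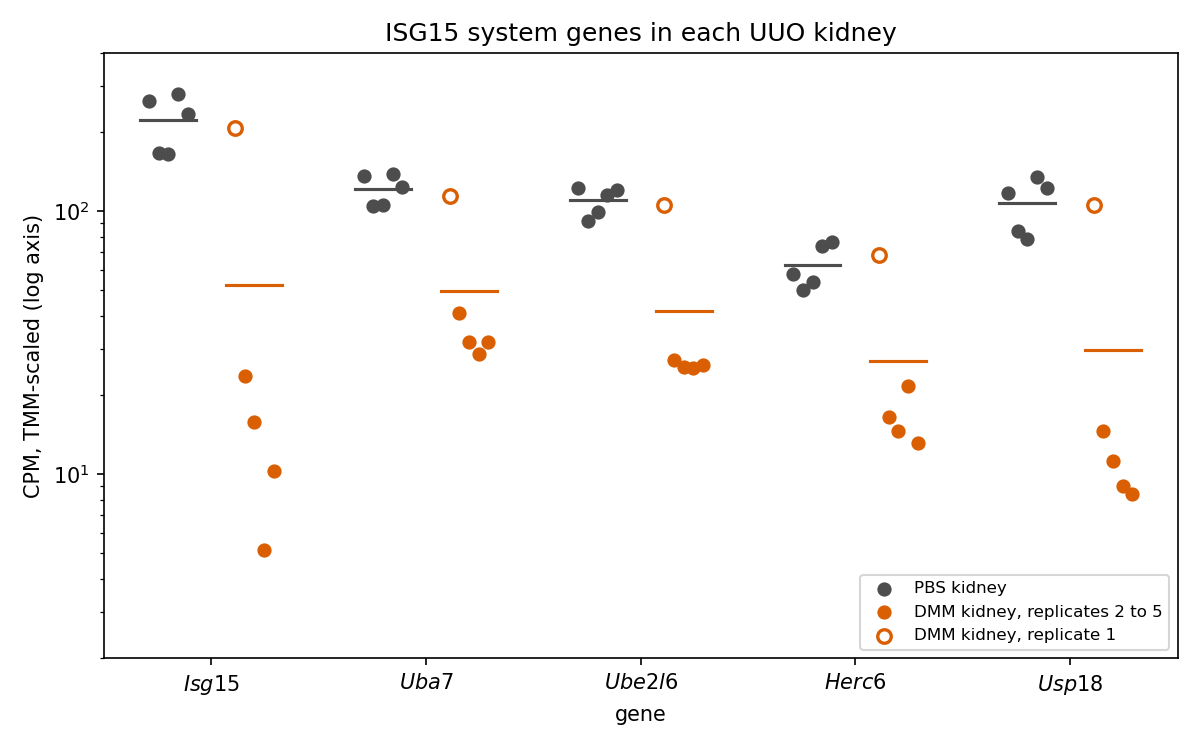
Level of each ISG15 system gene in every kidney, in TMM-scaled CPM on a log axis, with points for single mice and bars for the means of 5 control (grey) and 5 DMM (orange) kidneys. DMM 1, the open circle, lies among the control kidneys for all 5 genes, and DMM 2 to 5 lie below every control kidney, from 5.13 to 23.6 CPM for Isg15.

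Isg15 encodes the modifier itself and lies on the minus strand of chromosome 4 (ENSMUSG00000035692, mm10 chr4:156199424-156200818, 756 bases of exon). Its normalized level, in counts scaled for library size with TMM (CPM), was 263, 167, 166, 279 and 235 in control 1 to 5, and 207, 23.6, 15.8, 5.13 and 10.3 in DMM 1 to 5. DMM 1 was the only DMM kidney within the control range, and the lowest control kidney had 7.01 times the level of the highest of DMM 2 to 5. The mean was 222 ± 52.9 CPM in control and 52.4 ± 86.7 CPM in DMM kidneys (SD, n = 5 each), so that the DMM group varied by more than its mean. The fitted log2 fold change, DMM relative to control, was -2.08 in edgeR over all 10 libraries, with a standard error of 0.87 and an adjusted p of 0.430. In the 8 libraries Isg15 fell by 4.10 on the log2 scale (edgeR, standard error 0.44, adjusted p = 0.00120), and 2 of 16550 genes fell further. In reads, Isg15 had 85 in DMM 4 and 375 in DMM 2, the lowest and highest of DMM 2 to 5, against 2838 to 5235 in control kidneys. Among DMM 2 to 5 the highest level was 4.60 times the lowest, against 1.68 times among the 5 control kidneys, and without DMM 4 it was 2.29 times the lowest.

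Uba7 encodes the activating enzyme (E1) that charges ISG15 at the expense of ATP (ENSMUSG00000032596, plus strand, chr9:107975505-107984060, 6692 bases of exon). It stood at 136, 105, 106, 139 and 124 CPM in control 1 to 5 and at 115, 41.2, 32.0, 28.7 and 31.8 CPM in DMM 1 to 5. DMM 1 was among the control kidneys, and the other DMM kidneys formed a separate low cluster whose highest member was 2.54 times below the lowest control. The means were 122 ± 16.2 CPM in control and 49.7 ± 36.7 CPM in DMM kidneys (SD, n = 5 each). In edgeR its log2 fold change was -1.29 with all 10 libraries (standard error 0.36, adjusted p = 0.378) and -1.91 with the 8 (standard error 0.15, adjusted p = 0.000191). A protein-coding gene on the same strand, Gm20661, overlaps Uba7 and had at most 3 reads in any library.

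Ube2l6, which encodes the conjugating enzyme (E2) that receives ISG15 from UBA7, is on chromosome 2 (ENSMUSG00000027078, plus strand, chr2:84798828-84810335, 1996 bases of exon). Its level was 123, 91.6, 99.1, 116 and 120.4 CPM in control 1 to 5. In DMM 1 to 5 it was 105, 27.2, 25.7, 25.4 and 26.0 CPM. DMM 2 to 5 were within 1.07 times of each other, the tightest agreement of any of the 5 genes in these kidneys, and DMM 1 was 0.957 of the control mean. The means were 110.0 ± 13.8 CPM in control and 41.9 ± 35.4 CPM in DMM kidneys (SD, n = 5 each). With all 10 libraries edgeR gave Ube2l6 a log2 fold change of -1.39, a standard error of 0.40 and an adjusted p of 0.378. With the 8 these became -2.11, 0.12 and, for the adjusted p of edgeR, 7.45e-05, and 1 gene of 16550 had a smaller adjusted p.

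Herc6 encodes the HECT-type ligase (E3) that does most of the transfer in mice (ENSMUSG00000029798, plus strand, chr6:57581000-57664632, 9292 bases of exon). Control 1 to 5 had 57.8, 50.2, 54.0, 73.5 and 76.6 CPM, and DMM 1 to 5 had 68.4, 16.6, 14.6, 21.6 and 13.1 CPM. DMM 1 ranked above 3 of the 5 control kidneys, and DMM 4, the lowest kidney for Isg15, was the highest of DMM 2 to 5 for Herc6, the longest of the 5 genes where Isg15 is the shortest. The means were 62.4 ± 11.9 CPM in control and 26.9 ± 23.5 CPM in DMM kidneys (SD, n = 5 each). On the log2 scale edgeR put Herc6 at -1.22 over all 10 libraries (standard error 0.43, adjusted p = 0.387) and -1.97 over the 8 (standard error 0.20, adjusted p = 0.000892). The pseudogene Gm19244 on the opposite strand reached 8 reads in a library, and Gm45193 on the same strand had 0, and whether reads shared with them were discarded is not known.

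Usp18 encodes the protease that removes ISG15 from substrates (ENSMUSG00000030107, plus strand, chr6:121245906-121270917, 2790 bases of exon). Its level in control 1 to 5 was 117, 84.2, 78.7, 136 and 123 CPM, and in DMM 1 to 5 it was 105, 14.6, 11.2, 9.06 and 8.45 CPM. No value of DMM 2 to 5 came near a control kidney, the lowest control being 5.40 times the highest of them, whereas DMM 1 was 0.977 of the control mean. The means were 108 ± 25.0 CPM in control and 29.7 ± 42.3 CPM in DMM kidneys (SD, n = 5 each). Fitted by edgeR over all 10 libraries, Usp18 differed by -1.86 on the log2 scale (standard error 0.69, adjusted p = 0.394). Within the 8 it fell by 3.41 (edgeR, standard error 0.22, adjusted p = 0.000108), and 14 of 16550 genes fell further. Gm44148, a long noncoding RNA gene on the opposite strand, had at most 7 reads.

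In the unweighted edgeR fit over all 10 libraries, the call of each gene turned on DMM 1. The limma voom fit with quality weights called 5 of 5 with DMM 1 kept. Without DMM 1 alone, edgeR called 5 of the 5 genes lower over the other 9 libraries, with log2 fold changes of -4.01 for Isg15, -1.87 for Uba7, -2.08 for Ube2l6, -1.92 for Herc6 and -3.32 for Usp18. That fit called 436 of 16760 tested genes lower in all. When any other single library was left out instead, DMM 4 and control 3 included, 0 of the 5 genes were called, and 0 of all tested genes. Within the 8 libraries the calls did not turn on a single kidney, as 5 of 5 were called whichever library was left out. In these fits 276 to 1281 genes were called lower in all. However, 0 of 5, and 0 of all tested genes, were called when the replicate number was added to the edgeR fit as a block, with adjusted p of the 5 from 0.0514 to 0.0825 and log2 fold changes of -4.34 for Isg15, -1.86 for Uba7, -2.05 for Ube2l6, -1.97 for Herc6 and -3.43 for Usp18. Without DMM 4, in which Isg15 was lowest, edgeR put it at -3.83 over the 7 others (adjusted p = 5.585e-05). Control 3, which the 8 libraries leave out, was the lowest control kidney for Isg15 and Usp18, at 0.703 and 0.684 of the mean of the other control kidneys, and was closer to them for Uba7, Ube2l6 and Herc6, at 0.841, 0.880 and 0.837.

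**Figure D2:**
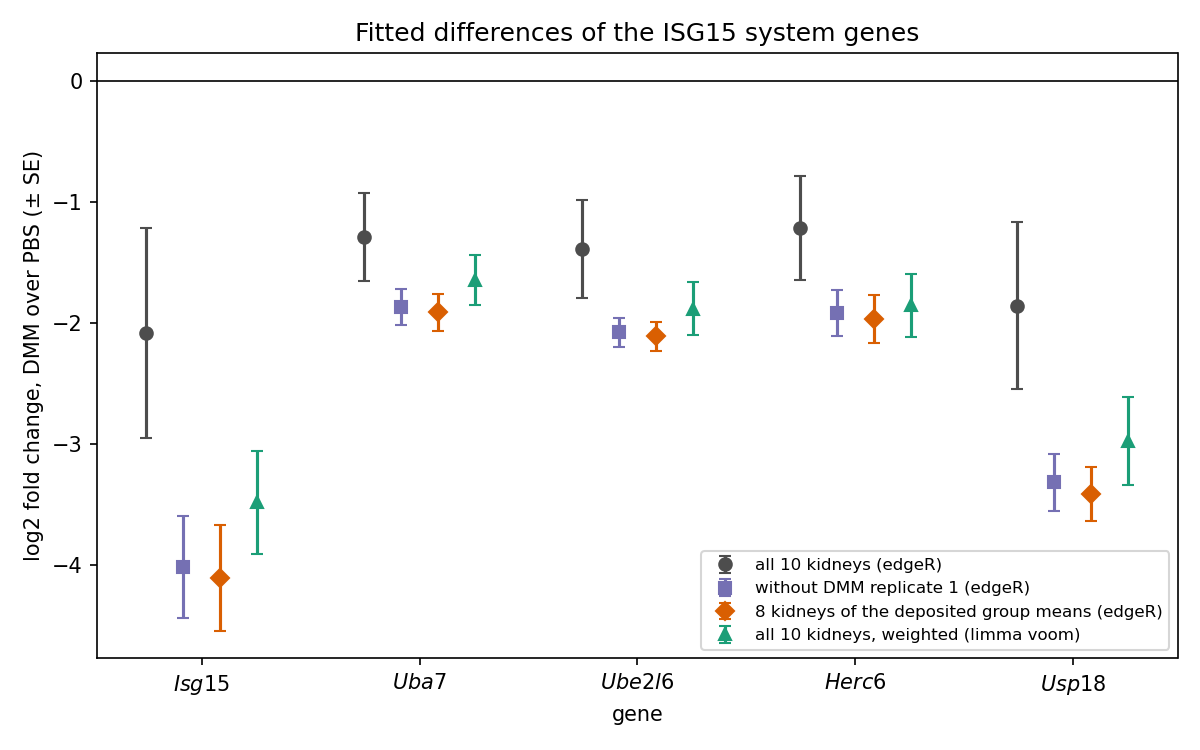
Fitted log2 fold change of DMM over control kidneys for each ISG15 system gene, with bars for the standard error, over all 10 kidneys, without DMM 1, over the 8 kidneys of the deposited group means, and over all 10 with limma's quality weights. For Isg15 the values are -2.08, -4.01, -4.10 and -3.48, and every fitted value of the 5 genes is below 0.

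Comparison between genes was made in TPM, which divides each count by the gene's exon length and scales each library to the same sum. That length is the union of the exons of all annotated transcripts, 15 for Uba7 and 1 for Isg15. Which transcripts the kidneys made is not known, so levels and their order between genes depend on this choice of length. In control kidneys Isg15 was by far the most abundant of the 5, at 1002 ± 259.7 TPM (SD, n = 5), and ranked 81st of 16505 tested genes by mean TPM. Ube2l6 followed at 188 ± 26.9 TPM and Usp18 at 132 ± 33.3 TPM, then Uba7 at 62.1 ± 9.57 TPM and Herc6 at 22.9 ± 4.73 TPM. Ube2l6 was above Usp18 in each of the 10 kidneys, although the ranges of these neighbours in the order overlapped between kidneys, with 157 to 213 TPM for Ube2l6 and 91.3 to 169 TPM for Usp18 in controls. The other neighbours in the order did not overlap in control kidneys. In DMM 2 to 5 Isg15 had 102, 66.3, 20.4 and 41.8 TPM and Ube2l6 had 44.6, 40.8, 38.1 and 39.8 TPM, so that these levels came close to each other and crossed in DMM 4. Usp18 was above Uba7 in 6 kidneys, the 5 controls and DMM 1, and below it in DMM 2 to 5. Herc6 had the lowest TPM of the 5 genes in every kidney.

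The balance between the enzymes and their substrate therefore differed between kidneys. In control kidneys the ratio of the TPM of Ube2l6 to that of Isg15 was 0.193 ± 0.0268 (SD, n = 5). It was 0.192 in DMM 1 and 0.436, 0.615, 1.87 and 0.954 in DMM 2 to 5. For Uba7 it was between 0.0563 and 0.0722 in controls, 0.0626 in DMM 1 and between 0.197 and 0.631 in DMM 2 to 5. For Herc6 it was between 0.0179 and 0.0265 in controls, 0.0269 in DMM 1 and between 0.0571 and 0.343 in DMM 2 to 5. Each of these ratios was higher in DMM 2 to 5 than in any control kidney, and highest in DMM 4, the library in which short genes were low and long genes high. Without DMM 4 they were 0.436 to 0.954 for Ube2l6, 0.197 to 0.348 for Uba7 and 0.0571 to 0.103 for Herc6 in DMM 2, 3 and 5, still above every control kidney. The ratio of Usp18 to Isg15 moved least, from 0.121 to 0.142 in controls to 0.167, 0.192, 0.478 and 0.222 in DMM 2 to 5. Among the enzymes, Usp18 per Ube2l6 was 0.695 ± 0.0997 in control kidneys (SD, n = 5) and between 0.232 and 0.383 in DMM 2 to 5, without overlap. Herc6 per Ube2l6 did overlap, with 0.101 to 0.137 in controls and 0.108 to 0.183 in DMM 2 to 5, and so did Uba7 per Ube2l6, with 0.306 to 0.358 and 0.337 to 0.452. Without DMM 4 the range of Uba7 per Ube2l6 in DMM kidneys was 0.364 to 0.452, above that of controls, and that of Herc6 per Ube2l6 was 0.108 to 0.131, within it. Isg15 made up 68.8% to 73.2% of the summed TPM of the 5 genes in control kidneys, 70.4% in DMM 1, and 53.8%, 47.4%, 23.1% and 38.1% in DMM 2 to 5. These ratios were described and not tested.

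**Figure D3:**
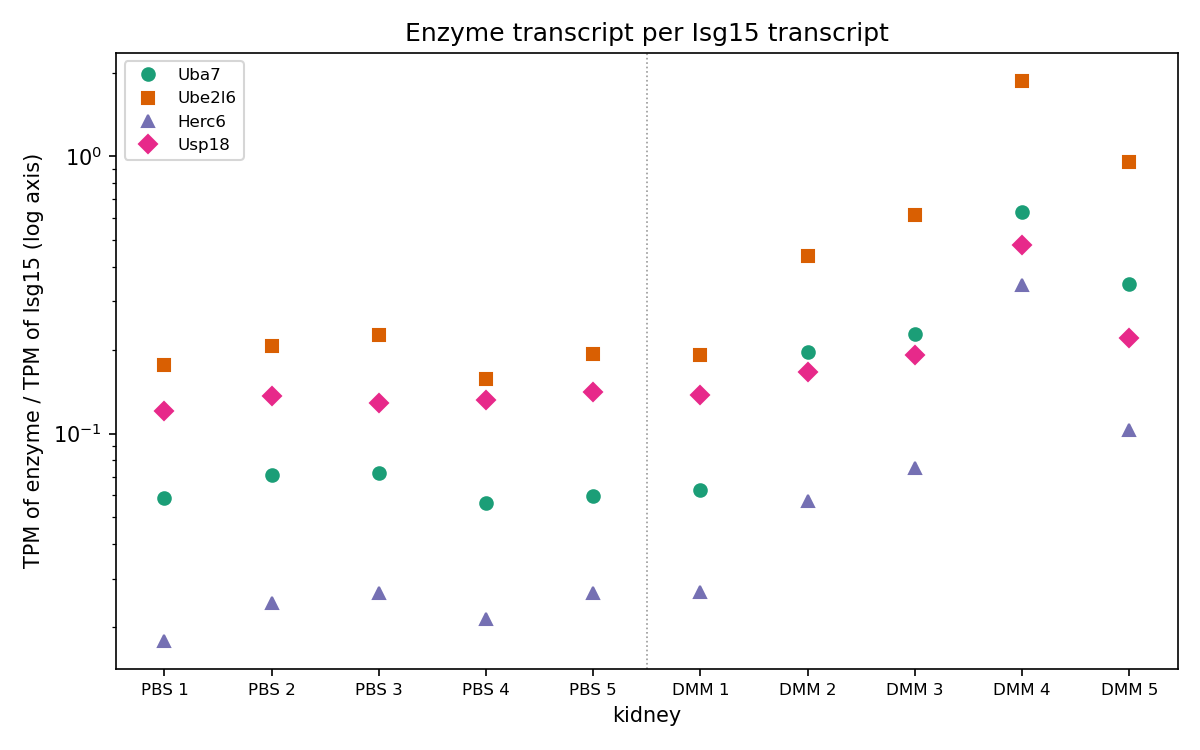
TPM of each enzyme gene divided by the TPM of Isg15 in the same kidney, on a log axis, for the 5 control (PBS) and 5 DMM kidneys. The 5 control kidneys and DMM 1 lie close together, at 0.157 to 0.227 for Ube2l6, and DMM 2 to 5 lie above them for all 4 enzymes, with DMM 4, in which levels went with exon length, the highest at 1.87 for Ube2l6.

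Across the 10 libraries the 5 genes followed each other. Pearson's r of log2 CPM with Isg15 was 0.990 for Uba7, 0.987 for Usp18, 0.974 for Ube2l6 and 0.926 for Herc6, which placed them 16th, 26th, 77th and 308th among the 16504 other tested genes. These values describe 10 libraries that fall into a high cluster of 6 and a low cluster of 4, so that any gene sharing this split has a high r. Uba7 and Usp18 were the closest pair, at 0.997, and Herc6 was most like Ube2l6 among the other members, at 0.975. The non-member genes with the highest r with Isg15 were Irf9 (0.998), Gm20559 (0.996), Tap1 (0.996), Dhx58 (0.996) and Mov10 (0.994). Irf9 is a DNA-binding transcription factor of the interferon response, Tap1 a peptide transporter of antigen presentation, and Dhx58 a sensor-like helicase of the RIG-I family. The nearest gene to Uba7 was Oas1a (0.998), to Ube2l6 Xaf1 (0.998), to Herc6 Parp9 (0.995) and to Usp18 Oasl2 (0.999). Over all 10 libraries the log2 fold changes of these 9 genes were from -1.83 for Oas1a to -0.92 for Irf9. Their adjusted p there was from 0.378 to 0.394 (edgeR), so that none was called. Over the 8 libraries the log2 fold changes were from -3.06 for Oasl2 to -1.33 for Irf9, a direction that follows from their choice by likeness to the members.

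Relatives of the 5 genes that serve ubiquitin and other modifiers were counted beside all genes tested over the 8 libraries, of which 590 were called lower and 452 higher of 16550. No test of a difference between these lists and the ISG15 system was run. Among 16 genes of other ubiquitin-like modifiers, all of them tested, 0 were called in either direction over either set of libraries, with a median log2 fold change of -0.08 over all 10 libraries and -0.10 over the 8, beside 0.02 and 0.02 for all tested genes and -1.39 and -2.11 for the 5 members. The interferon-inducible modifier gene Ubd (also called Fat10) had the lowest value of that list, -0.92 over all 10 libraries (adjusted p = 0.455, edgeR) and -1.27 over the 8 (adjusted p = 0.111, edgeR). None of the 9 genes of other E1 enzymes or their partners was called over either set, with medians of 0.01 over 10 and -0.01 over 8 libraries. Uba1, the main activating enzyme of ubiquitin, had log2 fold changes of 0.02 and -0.01, and Uba6 was at 142 CPM in DMM 4 and between 36.0 and 49.0 CPM in the other 9 kidneys. Of 37 genes of other E2 enzymes or their variants, picked by symbol, 32 were tested and 0 called over either set (medians 0.04 and 0.05), and of the 4 large and small HERC genes other than Herc6, 0 were called (medians 0.31 and 0.39). Herc1 was at 377 CPM in DMM 4 and between 120 and 138 CPM in the other 9 kidneys. Herc2 was at 399 CPM in DMM 4 and between 147 and 185 CPM in the other 9. Among 54 other genes of the ubiquitin-specific protease family, picked by symbol, 44 were tested, 0 were called over all 10 libraries, and 0 were called lower and 1 higher over the 8 (medians 0.15 and 0.20). The called gene was Usp2, at 1.06 on the log2 scale over the 8 libraries (edgeR, adjusted p = 0.0255) and 0.71 over all 10 (edgeR, adjusted p = 0.403). Log2 fold changes over the 8 libraries in the lists of other E1 and E2 genes lay between -0.53 and 0.57, and the least lowered of the 5 members, Uba7, was at -1.91.

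Other genes tied to ISG15 moved in part. Of 11 genes for additional ligases, proteases that can act on ISG15, partners of USP18 and the receptor of secreted ISG15, 0 were called over all 10 libraries, where 0% of all tested genes were. Medians were -0.37 over all 10 libraries and -0.47 over the 8. Over the 8 libraries 4 were called lower, where 3.56% of all tested genes were. The 4 were Stat2, a partner of USP18 at the receptor, at -2.39 on the log2 scale (edgeR, adjusted p = 0.000107), the ligase gene Trim25 at -0.94, and Itgal and Itgb2, whose products form the integrin LFA-1 that binds extracellular ISG15, at -0.87 and -1.04. Over all 10 libraries the values were -1.48 for Stat2, -0.69 for Trim25, -0.63 for Itgal and -0.78 for Itgb2, with adjusted p from 0.378 to 0.385 (edgeR). Ifnar2, where USP18 acts, differed by -0.37 over all 10 libraries (adjusted p = 0.385, edgeR). Over the 8 libraries Ifnar2 differed by -0.47 (adjusted p = 0.0489, edgeR), short of the fold change needed for a call. The proteases Usp5, Usp14, Usp16 and Usp21 had log2 fold changes from -0.15 to 0.30 over all 10 libraries and from -0.21 to 0.41 over the 8. They were not called over either set.

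Markers of several cell types moved along with the ISG15 system, and their part in the result was not tested. The summed CPM of 5 macrophage markers, C1qb the most abundant, was 1170.0, 1042, 935, 1074 and 1247 in control 1 to 5 and 972, 688, 575, 460.2 and 592 in DMM 1 to 5. That of 5 T cell markers, led by Cd4, was 36.2, 37.9, 36.5, 31.0 and 54.0 in control and 32.9, 25.6, 11.4, 15.7 and 15.3 in DMM 1 to 5. In these sums DMM 1 was within the control range and DMM 2 to 5 below it. The means of the sums in DMM 2 to 5 were 0.529 (macrophage) and 0.435 (T cell) of the control means. By single genes, DMM 1 was below every control kidney for 4 of the 10 markers (Adgre1, Cd4, Cd3d and Cd3e), within the control range for 5 (Csf1r, C1qa, C1qb, Cd68 and Cd3g) and above it for Cd8a. The leukocyte marker Ptprc had 159 to 193 CPM in control kidneys, 160.2 in DMM 1, and 104, 70.9, 150 and 78.2 in DMM 2 to 5. In the 8 libraries 2 of 5 macrophage markers (Cd68 and C1qb) and 1 of 5 T cell markers (Cd4) were called lower, where 3.56% of all tested genes were, and 0 of each over all 10, where 0% were.

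For the tubule list of 7 genes, 3 (Lrp2, Slc12a1 and Slc12a3) were called higher over the 8 libraries, where 2.73% of all tested genes were, and 0 over all 10, where 0% were. Its summed level, led by Umod, was 4979.7, 4415, 7813, 2976 and 3219 CPM in control and 4184, 6996, 8053, 5409.8 and 8706 CPM in DMM 1 to 5, so that control 3 lay among the DMM kidneys and DMM 1 among the controls. No gene was called over either set among 2 podocyte, 4 endothelial, 4 fibroblast, 3 NK cell, 3 B cell and 5 dendritic cell markers, nor among the 3 of 4 neutrophil markers that were tested. Median log2 fold changes over the 8 libraries were -0.15 for podocyte, -0.02 for endothelial, -0.39 for fibroblast, -0.31 for NK cell, -0.65 for B cell, -0.78 for dendritic cell and -0.12 for neutrophil markers. Over all 10 libraries these medians were, in the same order, -0.01, 0.0002, -0.28, -0.54, -0.23, -0.57 and -0.06. Of all the lists, no marker was at 0 in every library. Summed levels were between 1.86 and 3.99 CPM for NK cell and between 1.80 and 3.56 CPM for B cell markers in control kidneys, so that these lists rest on few reads.

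The promoters are shown because the genes moved together and interferon acts on such genes through a short DNA element, the interferon-stimulated response element. RefSeq promoter windows, 250 bases before to 50 after the start on GRCm38.p6, were found for 4 of the 5 genes, Isg15, Uba7, Ube2l6 and Herc6, and the table used has no entry for Usp18. They were searched on both strands for GAAANNGAAA, the core of that element, with overlapping matches counted. The letters occur in 1131 of 32851 windows (3.44%) and in the windows of 3.96% of the tested genes that have one. Isg15 has 3 overlapping matches on its own strand, between 78 and 57 bases before the start, and the windows of Uba7, Ube2l6 and Herc6 have 0. Among genes called lower over the 8 libraries that have a window, 20.2% of 425 hold the letters. Those genes were picked from these same data, and the difference from all tested genes was not tested. A match describes the sequence and not the binding of a factor. Only exact matches were counted, so a window with 0 can still hold a variant of the element. The RefSeq start equals the gene start given above for Isg15 and Ube2l6, but lies 62 bases inside the gene for Uba7 and 8 bases before it for Herc6. The last 150 bases before the RefSeq start follow, 5′ to 3′ on the strand of the gene and with the matches in capitals, for Isg15 (chr4:156200819-156200968, minus strand), Uba7 (chr9:107975417-107975566, plus strand), Ube2l6 (chr2:84798678-84798827, plus strand) and Herc6 (chr6:57580842-57580991, plus strand).
Isg15: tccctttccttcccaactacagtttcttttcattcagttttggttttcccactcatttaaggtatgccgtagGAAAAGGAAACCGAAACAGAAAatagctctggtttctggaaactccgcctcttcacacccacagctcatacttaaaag
Uba7: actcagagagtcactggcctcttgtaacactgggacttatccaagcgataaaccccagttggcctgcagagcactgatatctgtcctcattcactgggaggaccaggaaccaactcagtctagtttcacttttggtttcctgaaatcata
Ube2l6: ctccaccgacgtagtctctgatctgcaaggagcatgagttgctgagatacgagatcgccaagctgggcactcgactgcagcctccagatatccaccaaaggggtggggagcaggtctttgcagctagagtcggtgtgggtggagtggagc
Herc6: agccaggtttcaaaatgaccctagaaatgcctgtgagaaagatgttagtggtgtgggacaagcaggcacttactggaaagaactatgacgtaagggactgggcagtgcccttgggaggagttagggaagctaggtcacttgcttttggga

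The 5 genes lie on 4 chromosomes, with Herc6 and Usp18 both on chromosome 6, and the nearest tested genes on either side, picked by position alone, differed in how they moved. AW011738, which lies 2486 bases beyond the start of Isg15, was at -2.49 on the log2 scale in the 8 libraries (edgeR, standard error 0.30, adjusted p = 0.00263) and at -1.40 in all 10 (edgeR, adjusted p = 0.418). Agrn, 1936 bases beyond the other end, was at -0.71 over the 8 (adjusted p = 0.0162, edgeR) and at -0.51 over all 10 (adjusted p = 0.385, edgeR). Both were called lower over the 8 libraries, where 3.56% of all tested genes were. Whether reads of Isg15 transcripts that run past its ends were counted for them was not tested. None of the 8 neighbours of the other members was called over either set. Of all tested genes, 3.56% were called lower and 2.73% higher over the 8 libraries, and 0% over all 10. Log2 fold changes of these neighbours over the 8 libraries were from -0.88 for Serping1, next to Ube2l6, to 1.09 for Slc6a13, next to Usp18. Over all 10 these 2 genes were at -0.68 and 0.57. Inka1 lies 163 bases beyond the end of Uba7 and was at -0.55 over the 8 libraries (adjusted p = 0.189, edgeR) and at -0.23 over all 10 (adjusted p = 0.724, edgeR). Whether counting used the strand of the reads is not given in the sources used here.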

How the data were processed

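Bulk RNA-seq libraries from 10 UUO kidneys, 5 control and 5 DMM, were analysed. The authors aligned the reads to mm10, with HISAT2 2.0.5 named in the submitters' processing notes, and deposited unnormalized counts per gene. The counting tool, the annotation release and the strand setting are not given in the sources used here. The authors' deposited FPKM, counts scaled to exon length and to a size per library, differ from TPM by a factor per library and gave no separate result. The deposited group means are a signal in counts divided by size factors, and they were fitted as weighted sums of the counts over 28001 genes to find which libraries they used. The authors' fold changes and p-values were not used. No column of sample values was left out (0 columns). The gene lengths that the authors deposited equal the union of GENCODE M21 exons for the 5 genes.

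Counts were filtered by filterByExpr, scaled by TMM and tested across all genes with the quasi-likelihood F test of edgeR 4.0.16 in R 4.3.3, and p-values were adjusted by the Benjamini-Hochberg method. The standard error of an edgeR value is its size over the square root of F. TPM was computed from counts and deposited gene lengths, and log2 CPM with a prior count of 2. Ratios were taken in TPM, which differ from ratios of CPM by a constant. The alternatives were DESeq2 1.42.0, limma 3.58.1 voom with sample quality weights, other scalings and filters, the replicate number as a block, and each library left out in turn. The fits were tested on simulated counts, in which no library was made to stand apart as DMM 1 and DMM 4 did. Those counts do not show how the fits behave with such libraries. Correlations over the 5 control libraries alone were not given, since they number fewer than 6.

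The members, the gene lists (ISG15-linked genes, other modifiers, E1, E2, HERC and USP genes, and cell type markers) and the tests were chosen with earlier results of these data known. Ube2cbp and Usp6nl, matched by symbol but not an E2 and not a protease, were taken out of the lists afterwards. Genes were named if they were members, were called, were among the up to 3 of smallest p in a list, or were most like a member. Neighbouring genes were added by position alone after the data were seen. Uba1, Uba6, Herc1, Herc2, Usp5, Usp14, Usp16 and Usp21 were picked from the lists after their values were seen. Each mouse gave a single library, and reads without molecular identifiers are not independent molecules.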

Additional observations from a re-analysis of the deposited data

Results flagged for a closer look

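In the group of 5 DMM kidneys, DMM 1 lay far above the others for 3 of the 5 ISG15 system genes. The gap between DMM 1 and the next kidney, on the log2 CPM scale, took up 0.950 of the whole range for Ube2l6, 0.786 for Usp18 and 0.739 for Uba7, where values above 0.71 are unusual for 5 samples. For Herc6 and Isg15 the gap was 0.699 and 0.589 of the range, below that value, and no control kidney stood out for any of the 5 genes, with gaps of at most 0.266. By chance about 1 in 20 groups passes this value, and the 5 genes were measured in the same kidneys and are not independent. Among 16505 tested genes DMM 1 lay above the other DMM kidneys by such a gap in 117 and DMM 4 in 1898. Why DMM 1 resembles the control kidneys in these genes was not tested.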

How the results depend on the processing

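Over all 10 libraries the log2 fold changes of the 5 genes stayed below 0 in each alternative run, and 0 of 5 genes were called with RLE size factors, library size alone, either other filter, no fold-change threshold, the replicate block or DESeq2. With the replicate block over 10 libraries the values were -3.40 (Isg15), -2.70 (Usp18), -1.52 (Uba7), -1.68 (Ube2l6) and -1.53 (Herc6), and adjusted p from 0.251 to 0.255 (edgeR). The 5 genes were called without DMM 1 alone, in the 8 libraries except with the replicate block, and with limma's weights, which lowered DMM 4 (0.051) more than DMM 1 (0.478). Over the 8 libraries the values were -4.10 (Isg15), -3.41 (Usp18), -1.91 (Uba7), -2.11 (Ube2l6) and -1.97 (Herc6), with DESeq2 over the 8 libraries -4.10, -3.41, -1.91, -2.11 and -1.97, and with limma voom over all 10 libraries -3.48, -2.98, -1.65, -1.88 and -1.86, with 5 of 5 called each time. Leaving out each of the 10 libraries in turn gave -4.01 to -1.79 for Isg15, -3.32 to -1.62 for Usp18, -1.87 to -1.15 for Uba7, -2.08 to -1.26 for Ube2l6 and -1.92 to -1.04 for Herc6, with 0 to 5 of the 5 called, 5 only without DMM 1, and 0 to 436 genes called lower and 0 to 50 higher in all. Among all tested genes, the counts lower and higher were 0 and 0 in the fit over 10 libraries, 590 and 452 over the 8, 36 and 14 with DESeq2 over 10, 911 and 749 with DESeq2 over 8, and 993 and 729 with limma voom. Within the 8 libraries, leaving out a library gave 276 to 1281 genes lower and 131 to 1129 higher, both highest without DMM 4, and library size alone gave 276 higher. Before adjustment, at p below 0.05 and more than a 1.5-fold change, 4 or 5 of the 5 genes were lower in each alternative over 10 libraries. Over the 8 libraries it was 5 in each. The share of all tested genes passing these limits was 4.11% in the main fit over 10 libraries and 7.24% over the 8. That share is not given for the alternatives, so their member counts have no background to be read against. Nothing in the sources used here says whether the replicate numbers pair the kidneys. Same-numbered kidneys deviated together with r of -0.06, 0.08, 0.34, 0.12 and -0.22. Of the control kidneys, 1 of 5 was most like its own number. These values cannot exclude a pairing. With the replicate block over the 8 libraries, 0 of 5 members, 0 genes lower and 0 higher were called, with values of -4.34 (Isg15), -3.43 (Usp18), -1.86 (Uba7), -2.05 (Ube2l6) and -1.97 (Herc6) and adjusted p from 0.0514 to 0.0825 (edgeR). In that block only numbers 2, 4 and 5 are in both groups, so that fewer libraries inform the comparison. The authors' FPKM differ from TPM by a factor per library, so that the order of levels, with Isg15 first in 9 libraries, could not differ between them. Why DMM 1 and control 3 have a weight of 0 in the deposited means is not given in the sources used here, where the methods state 5 replicates per group, and the cause of their levels was not tested.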
